A study of Mus musculus with 2 samples.

Results

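A set of 8 genes that encode ubiquitin ligases of striated muscle or their substrate adaptors were examined in cultured mouse skeletal myoblasts with and without a working Foxj3 gene: the Kelch adaptors Klhl40, Klhl41, Klhl31 and Klhl13, the TRIM ligases Trim54, Trim55 and Trim63, and the F-box protein gene Fbxo32. The genes were chosen with their signals on these arrays known, so their differences between the arrays are given as a description. Of the 8 genes, 6 were named by the platform annotation, through 9 probe sets, among 18193 genes named on the array. The signals of Klhl31 and Trim55 were not analysed here. The wild-type (WT) group was 1 culture of Foxj3 WT skeletal myoblasts and the knockout (KO) group 1 culture of Foxj3 KO skeletal myoblasts. Both were at passage 3, were grown in serum-rich growth medium and were harvested before confluence, and the total RNA of each was hybridised to 1 Affymetrix oligonucleotide array. The knockout allele, the strain and age of the animals and the number of animals behind each culture are not given in the sources used here. With 1 array per group, there was no spread between cultures to judge a difference by, no p-value was computed, and precision is limited by the number of arrays.

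Ubiquitin ligases attach ubiquitin to chosen proteins, which marks many of them for the proteasome. Kelch proteins with a BTB domain serve as adaptors that bring substrates to ligases built on cullin 3, but KLHL40 and KLHL41 are also known for protecting thin filament proteins of the sarcomere such as nebulin, and mutations in either gene cause nemaline myopathy. The proteins of Trim54, Trim55 and Trim63, called MuRF3, MuRF2 and MuRF1, carry a RING domain and sit on titin and microtubules in muscle. Trim63 and Fbxo32, the latter encoding atrogin-1 of an SCF ligase built on cullin 1, are the classic genes induced in muscle wasting, where FoxO factors drive them.

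Over the whole data set, the median signal was 62.0 in WT and 63.9 in KO myoblasts. The share of probe sets that exceeded a detection floor was 59.2% (WT) and 60.8% (KO). The floor was 47.04, the 40th percentile of all values of both arrays. A gene was counted as measured where its main probe set, the one with the highest mean log2 value, was over the floor on at least 1 array, which was the case for 14597 genes. A value under the floor was set to it, so a ratio with 1 such value is a bound. Foxj3 read 496 in WT and 77.3 in KO myoblasts by its main probe set, while another read 79.7 and 99.4, so its probe sets do not settle the labels. All 12 of the fixed myoblast markers were measured, 11 over the floor in WT (Msc read 27.8) and 12 in KO. Their summed signal was 10551 in WT and 12641 in KO myoblasts, with a median log2 ratio of 0.06. None was at 0 on either array, but neither was any marker of the other cell types with a probe set. By main probe sets, 0 of the 12 myoblast markers were at least 2-fold lower and 2 at least 2-fold higher. These were the syndecan gene Sdc4 (468 and 2149) and the determination factor gene Myod1 (631 and 1751). The other probe set of Sdc4 had a log2 ratio of 0.22, and that of Pax7 had 1.27. The other probe sets of Vcam1 were above 0, and those of Ncam1 pointed in both directions.

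By their main probe sets, all 6 measured members were lower in the KO library, and 5 of the 6 were at least 2-fold lower. Across all measured genes, 6.72% were at least 2-fold lower and 3.73% at least 2-fold higher. The members were chosen from this contrast, so nothing is read from the difference between these shares. The median log2 ratio, KO over WT, was -2.21 over the 6 members, of which 3 are bounds, beside -0.06 over all measured genes. The members fell into a group of 4 genes that were at least 3.72-fold lower (Klhl40, Klhl41, Trim54 and Trim63) and a pair, Klhl13 and Fbxo32, whose probe sets pointed in both directions. Of all 9 probe sets, 6 were lower and 3 higher in the KO library, and 5 were at least 2-fold lower and 0 at least 2-fold higher, beside 6.67% and 5.62% of all measured probe sets. Among calls over all genes, 64.3% were lower as deposited, and 52.3% when the medians of probe sets above the floor were made equal between arrays, an alternative chosen after the data were seen, under which 4 of the 6 members were at least 2-fold lower.

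**Figure D1:**
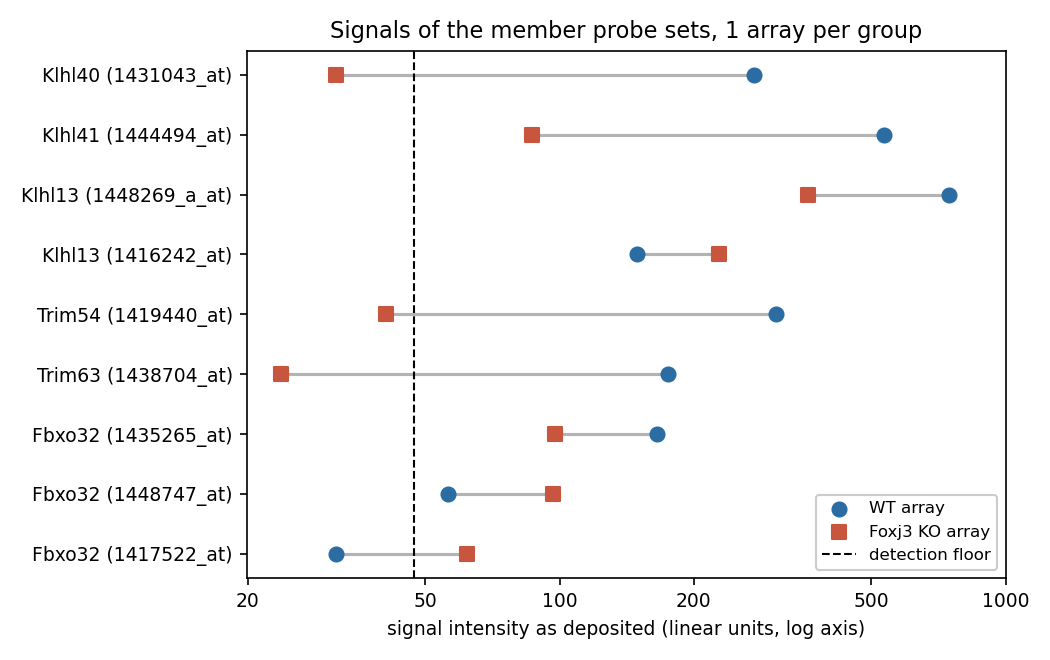
Deposited signal of each member probe set (log axis, linear signal units) on the WT array (circles) and the Foxj3 KO array (squares), joined by a line, with the detection floor of 47.04 dashed. Klhl40, Trim54 and Trim63 lie over the floor on the WT array and under it on the KO array, and the second probe set of Klhl13 and 2 of the 3 probe sets of Fbxo32 run the other way.

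Klhl40 and Klhl41 were both lower in the KO library. Klhl40, which stabilises the thin filament proteins nebulin and leiomodin 3, read 272 in WT and 31.5 in KO myoblasts by its probe set 1431043_at. The KO signal was under the floor, so Klhl40 was at least 5.79-fold lower (log2 ratio at most -2.53). Klhl41, also called sarcosin, which binds nebulin and the nebulin-related protein NRAP during myofibril assembly, read 534 and 86.5 by 1444494_at, 6.17-fold lower (log2 ratio -2.63). Klhl41 was over the floor on both arrays, so this ratio is measured and not a bound. Each of these genes had 1 probe set, and neither ratio could be checked against another.

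The measured MuRF genes were lower as well. Trim54, whose protein MuRF3 associates with microtubules and the Z-disc, read 306 in WT and 40.8 in KO myoblasts by 1419440_at, at least 6.50-fold lower (log2 ratio at most -2.70). Trim63, whose protein MuRF1 ubiquitinates myosin and other thick filament proteins, read 175 and 23.7 by 1438704_at, at least 3.72-fold lower (log2 ratio at most -1.89). Both had KO signals under the floor and 1 probe set each. With KO signals of Klhl40, Trim54 and Trim63 under the floor, the data give bounds of 5.79-fold, 6.50-fold and 3.72-fold, which follow the WT signal, and the sizes of these differences cannot be put in order.

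**Figure D2:**
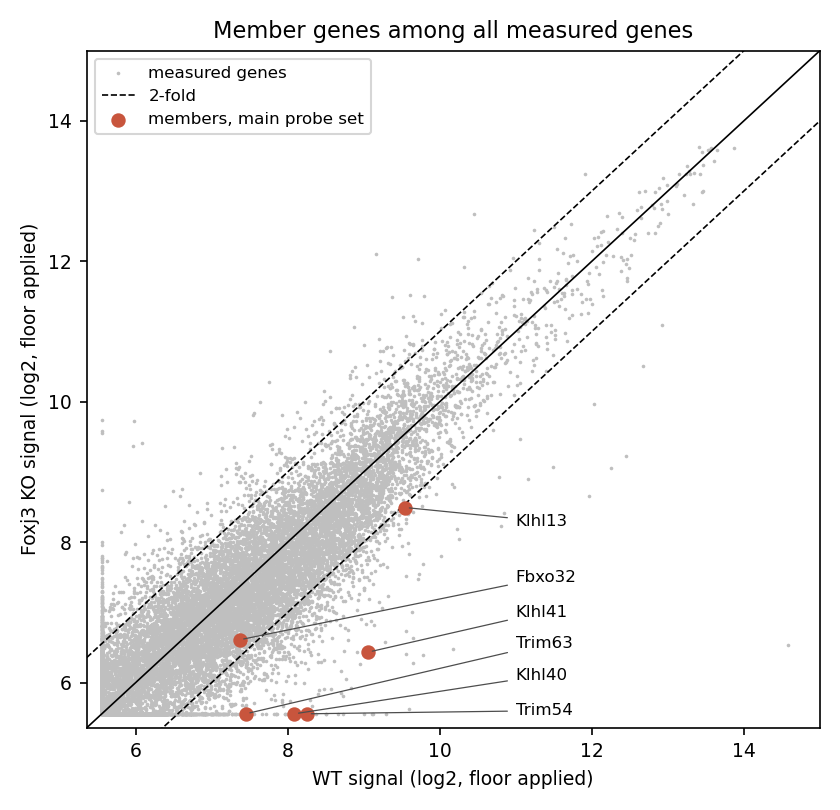
Log2 signal on the WT array (x axis) and the Foxj3 KO array (y axis) of every measured gene by its main probe set (grey), with values under the floor set to it, equality as a solid line and 2-fold as dashed lines. Klhl40, Klhl41, Trim54 and Trim63 lie below the lower dashed line, Klhl13 at that line (2.07-fold lower) and Fbxo32 within it (1.69-fold lower).

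Klhl13 was at the threshold, and its probe sets disagreed. KLHL13, the partner of KLHL9 in a cullin 3 ligase that acts on Aurora B in mitosis, is not specific to muscle. Its main probe set, 1448269_a_at, read 748 in WT and 360 in KO myoblasts, 2.07-fold lower (log2 ratio -1.05). The other, 1416242_at, which the annotation ties to the same transcript record, read 149 and 227, 1.52-fold higher (log2 ratio 0.61). Averaged over both probe sets the log2 ratio was -0.22, under 2-fold.

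Fbxo32 showed no common direction. Its main probe set, 1435265_at, read 165 in WT and 97.7 in KO myoblasts, 1.69-fold lower (log2 ratio -0.76). A second probe set, 1448747_at, gave 56.3 and 96.8, 1.72-fold higher (log2 ratio 0.78), and 1417522_at, tied to the same transcript record, read 31.5 and 62.1, at least 1.32-fold higher since the WT value was under the floor. The mean log2 ratio over the 3 probe sets was 0.14, so the direction of Fbxo32 turned with the way its probe sets were combined. Both genes of muscle wasting were thus measured, with Trim63 at least 3.72-fold lower by its single probe set and Fbxo32 under 2-fold by the 2 of its probe sets that were over the floor on both arrays, in opposite directions.

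The spread between probe sets of a gene is given beside these differences. Of the genes with exactly 2 probe sets above the floor in WT and KO, 3047 in all, 52.8% had ratios of like sign at both, and the differences had an SD of 0.88, or 0.62 per probe set. Among 491 genes at least 2-fold lower by the main probe set that had other measured probe sets, 273 (55.6%) had at least 1 above 0, as Klhl13 did. The log2 ratios of Klhl40, Klhl41, Trim54 and Trim63 were larger in size than 0.88, which refers to a difference between 2 ratios, and 0.62. The members were chosen from this contrast, so ratios above these SDs follow from the choice and are a description. The log2 ratio of Klhl13, -1.05, was also larger than both SDs, but nearer to them, and that of Fbxo32, -0.76, lay between them in size. The SDs rest on signals above the floor in KO as well as WT. They are therefore not the spread of Klhl40, Trim54 and Trim63, whose KO signals were under the floor. This spread is taken within 1 pair of cultures, and what it is made of was not tested.

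Klhl40, Klhl41, Trim54 and Trim63 lay at the lower end of their families. Klhl41 had rank 1 and Klhl40 rank 2 from the lowest log2 ratio among 37 measured Kelch genes with a BTB domain, and Klhl13 had rank 4. The other 34 measured genes of this family had a median log2 ratio of -0.32. Of these, 22 were below 0 and 12 above, the latter including Kbtbd13 (112 and 160, log2 ratio 0.52). Among the 34, 4 were at least 2-fold lower and 0 at least 2-fold higher. These were Kbtbd3 (176 and 74.7, 2.35-fold lower), Klhl17 (356 and 176, 2.03-fold), Klhl2 (231 and 114, 2.02-fold) and Kbtbd11 (94.4 and under the floor, at least 2.01-fold), of which Klhl17 and Kbtbd11 had another probe set above 0. Among 51 measured TRIM genes, Trim54 had rank 1 and Trim63 rank 2. The other 49 had a median of 0.00, with 4 at least 2-fold lower and 2 at least 2-fold higher, led by Trim56 (210 and 59.3, 3.54-fold lower). Fbxo32 had rank 8 among 57 measured F-box genes, and the other 56 had a median of -0.001, with 2 at least 2-fold lower, Fbxo9 (2.26-fold) and Fbxo24 (2.17-fold). Across 10 alternative settings the ranks ranged from 1 to 3 for Klhl41, 1 to 2 for Klhl40, 1 to 3 for Trim54, 2 to 4 for Trim63, 3 to 17 for Klhl13 and 7 to 38 for Fbxo32. The ranks of Klhl40, Trim54 and Trim63 rest on bounds, as do those of other genes under the floor such as Trim47 (119 and 11.9, at least 2.53-fold lower), so their exact order was not measured. These ranks follow from the way the members were chosen and are a description.

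The Kelch and F-box members join ligases built on cullin 3 and cullin 1, whose genes had median log2 ratios near 0. A list of the cullin 3 core and of cullin control by NEDD8 had 13 measured genes. Attachment of NEDD8 activates cullins, while Cops2, Cops3, Cops4, Cops5 and Cops6 on this list encode subunits of the complex that removes it. Of the 13 genes, 0 were at least 2-fold higher and 1 was at least 2-fold lower by main probe sets. This was Dcun1d1 (224 and 102), and 2 of the 4 other probe sets of this gene were above 0. The 13 genes had a median log2 ratio of -0.09 and ranged from -1.13 to 0.54 by their main probe sets. Other probe sets spread further, from -1.94 (Cops5) to 1.99 (Uba3). Cul3 itself read 618 in WT and 581 in KO myoblasts by its main probe set (log2 ratio -0.09), while its other measured probe sets ranged from -0.34 to 1.18. Among 8 genes on a list of SCF ligases, 0 passed 2-fold in either direction, with a median of -0.10. This list was not limited to core subunits, as Skp2, Btrc, Fbxw7 and Fbxw11 encode F-box proteins. Fbxw7 and Fbxw11 were also counted among the other F-box genes. Rbx1, a core subunit gene on both lists, read 58.2 in WT and 47.1 in KO myoblasts. Its WT signal was so close to the floor that a 2-fold fall could not have been seen. The largest ratios by main probe set on the SCF list were those of Fbxw7 and Btrc. Fbxw7 read 163 and 86.9 (log2 ratio -0.90, and -0.54 at its other probe set). Btrc read 91.8 and 129 (0.49), and its other probe sets ranged from -0.25 to 0.81. Skp1, which links F-box proteins such as atrogin-1 to cullin 1, read 634 and 659, with -0.41 at its other probe set. Cul1 read 413 and 448.

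Other ligases studied in muscle had a median log2 ratio near 0. Of 15 measured genes on this list, 9 were below 0 and 6 above, 0 were at least 2-fold lower and 3 at least 2-fold higher, with a median of -0.10. Nedd4, a HECT ligase that acts on membrane proteins, read 784 in WT and 2952 in KO myoblasts, 3.77-fold higher. Its other probe sets read 533 and 2300 (log2 ratio 2.11) and 47.8 and 804 (4.07), so all 3 were higher in the KO library. Mdm2, the ligase of p53, read 650 and 1488, 2.29-fold higher, and 234 and 806 by its other probe set (1.79). Traf6, a RING ligase of cytokine signalling, was at least 2.30-fold higher by its main probe set, and 1 further probe set of 3 was below 0. By main probe sets the remaining listed genes were under 2-fold, among them Fbxo30 (167 and 103), Trim32 (254 and 283), Trim72 (84.5 and 78.9), Cblb (187 and 168) and Asb5 (1711 and 2456). The other probe sets of Fbxo30 disagreed, with log2 ratios of 0.63, 0.27 and at most -1.59, the last with a KO signal under the floor. Another probe set of Ubr2 had a log2 ratio of 1.26.

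Transcripts of several sarcomere proteins that the members bind or target were lower in the KO library. Of 19 measured partners and substrates, 8 were at least 2-fold lower and 2 at least 2-fold higher. Over all measured genes these shares were 6.72% and 3.73%. The median log2 ratio of the 19 was -0.44. Lmod3, the leiomodin protected by KLHL40, read 426 in WT and 36.6 in KO myoblasts, at least 9.05-fold lower. Neb, which encodes nebulin, read 398 and 207, 1.92-fold lower. Nrap, the KLHL41 partner, read 297 and 63.6, 4.68-fold lower. Lmod2 was at least 4.46-fold lower. Of MuRF partners, all 6 measured probe sets of Ttn, the titin gene to which MuRF proteins bind, were below 0, with log2 ratios from -2.44 to -0.52. Myh1, a fast myosin heavy chain gene, was at least 6.17-fold lower. Tnni3, the cardiac troponin I gene, had the most negative log2 ratio of the list, -8.05, from 1 probe set (24578 and 92.6). Its WT signal was the highest of the list, with Mylpf next at 6529, and the reason was not tested. The 2 genes at least 2-fold higher were Myod1 (631 and 1751), whose protein is an atrogin-1 substrate, and Sqstm1 (642 and 1496), whose protein p62 joins titin and MuRF2 in a signalling complex. Eif3f, another atrogin-1 substrate, read 3248 and 3440.

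**Figure D3:**
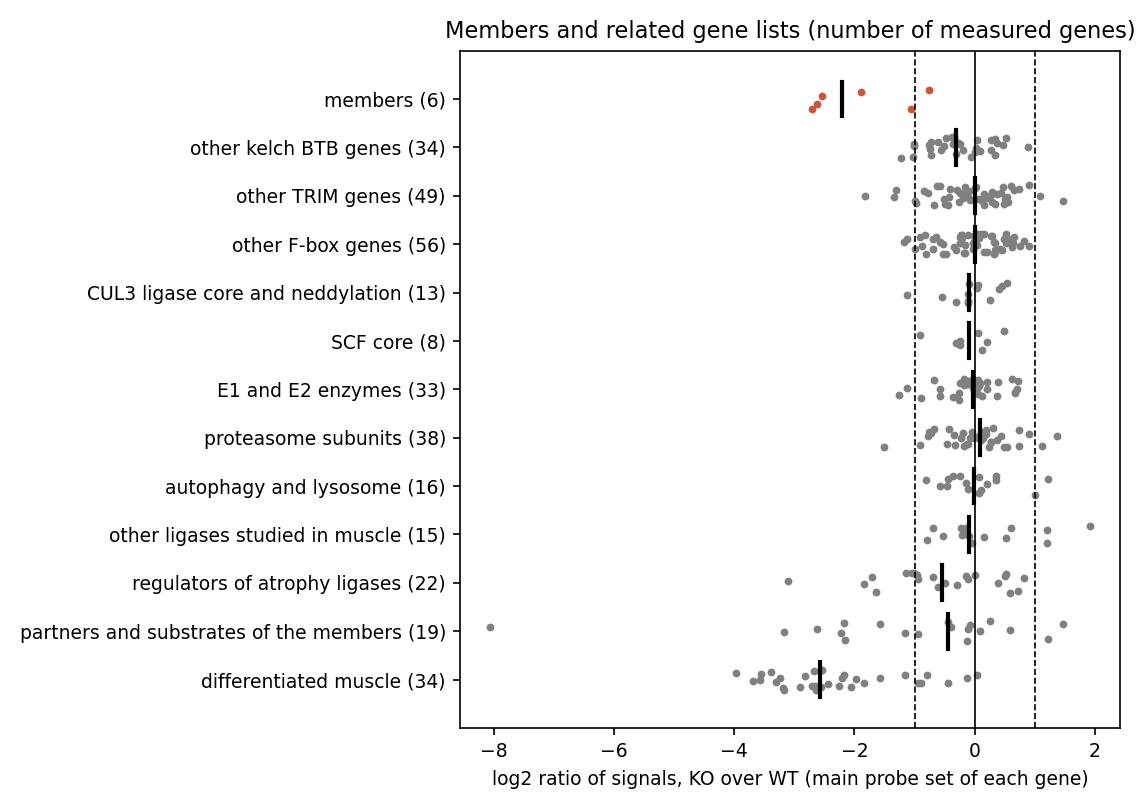
Log2 ratio, KO over WT, of each measured gene by its main probe set (points, spread vertically at random for visibility) for the members and for 12 related lists, with the median of each list as a black bar, 0 as a solid line and 2-fold as dashed lines. The members (median -2.21) and the differentiated muscle genes (median -2.57) lie to the left, and the medians of the other lists lie between -0.55 and 0.08.

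Genes that control the atrophy ligases had a median log2 ratio below 0, with single genes in both directions. Of 22 measured regulators, 15 were below 0 and 7 above by main probe sets. At least 2-fold lower were 7 and at least 2-fold higher 0, beside 6.72% and 3.73% of all measured genes. The median log2 ratio was -0.55, and the list was chosen with earlier results of these data known. Of the FoxO factors that induce Trim63 and Fbxo32, Foxo3 read 416 in WT and 628 in KO myoblasts (log2 ratio 0.59, and 0.22 at its other probe set) and Foxo4 read 107 and 188 (0.81). Foxo1 read 311 and 253 (-0.29) by its main probe set, and its other probe sets had log2 ratios of -0.14, -1.40 and -1.88. Myog, encoding myogenin, which is known to activate Trim63 and Fbxo32 in denervated muscle, read 1754 and 488, 3.60-fold lower. Mef2c, a transcription factor of muscle differentiation, read 404 in WT myoblasts and was under the floor in KO, a difference of at least 8.58-fold, and its 4 other probe sets were below 0. Mef2d was 3.14-fold lower, and its other probe sets had log2 ratios of -1.27 and 0.01. The class IIa deacetylase genes Hdac4 (169 and 76.9) and Hdac5 (298 and 146) were 2.20-fold and 2.05-fold lower. The coactivator gene Ppargc1a read 169 and 51.4, 3.28-fold lower, and 1 further probe set of 3 was above 0. Stat3 read 167 and 83.1 (2.01-fold lower) at one probe set and 71.0 and 163 (2.29-fold higher) at another. The glucocorticoid receptor gene Nr3c1 read 150 and 77.2 (log2 ratio -0.96).

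The 4 clearly lower members lay among genes of differentiated muscle. Of 34 such genes, none of them a member, 33 were below 0, with a median log2 ratio of -2.57. By main probe sets 28 were at least 2-fold lower and 0 at least 2-fold higher, beside 6.72% and 3.73% of all measured genes. The list was chosen with earlier results of these data known, so these counts are a description. Chrng and Des each had another probe set above 0 (log2 ratios 2.62 and 0.82). The whole list had a summed signal of 59402 in WT and 15110 in KO myoblasts. This list shares 7 measured genes with the partners and substrates, and among the other 12 partners 4 were at least 2-fold lower and 2 at least 2-fold higher. The 4 were Lmod2, Nrap, Myh1 and Tnni3, which also encode sarcomere or myofibril proteins though they were not on the list. The 2 were Myod1 and Sqstm1. In RNA of whole cultures, fewer differentiated cells and less RNA of these genes per cell cannot be told apart.

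Markers of other cell types differed less evenly between the arrays. Summed over the measured markers, the signal was 1313 in WT and 1272 in KO myoblasts for fibroblasts (7 of 10 markers measured), 9276 and 8168 for smooth muscle and pericytes (6 of 10), 184 and 259 for endothelium (3 of 8), 762 and 657 for macrophages (5 of 8), 1117 and 617 for Schwann cells (5 of 7) and 838 and 462 for adipocytes (4 of 6). None of these markers with a probe set was at 0 on either array by its main probe set. Several were at least 2-fold different, including Erbb3 (at least 13.4-fold lower, while its second probe set had a log2 ratio of 0.26), Myh11 (3.99-fold lower), Fabp4 (3.64-fold lower) and Tagln (2.79-fold higher), and their part in the members' differences was not tested. The lower Schwann sum came from Erbb3 (628 and 46.9): the other 4 measured Schwann markers were above 0, and the list had a median log2 ratio of 0.21.

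The promoters of the 4 lower members are shown because these genes were lower together. Each window, from RefSeq on GRCm38.p6, covers 250 bases before to 50 after a transcript start, in the direction of transcription. Capitals mark matches on either strand to the E-box CANNTG, which myogenic bHLH factors such as MyoD and myogenin bind, to the MEF2 site, and to the forkhead site GTAAACA. In these windows no match overlapped one of another motif. The windows lie at chr9:121777357-121777656 (Klhl40), chr2:69669870-69670169 (Klhl41), chr5:31116362-31116661 (Trim54) and chr4:134314870-134315169 (Trim63), all on the + strand.
Klhl40: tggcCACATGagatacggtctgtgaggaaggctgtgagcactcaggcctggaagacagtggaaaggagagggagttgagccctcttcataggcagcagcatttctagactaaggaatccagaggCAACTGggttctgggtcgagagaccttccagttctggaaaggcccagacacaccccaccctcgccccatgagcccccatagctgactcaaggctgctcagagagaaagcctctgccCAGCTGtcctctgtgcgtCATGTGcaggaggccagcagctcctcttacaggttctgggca
Klhl41: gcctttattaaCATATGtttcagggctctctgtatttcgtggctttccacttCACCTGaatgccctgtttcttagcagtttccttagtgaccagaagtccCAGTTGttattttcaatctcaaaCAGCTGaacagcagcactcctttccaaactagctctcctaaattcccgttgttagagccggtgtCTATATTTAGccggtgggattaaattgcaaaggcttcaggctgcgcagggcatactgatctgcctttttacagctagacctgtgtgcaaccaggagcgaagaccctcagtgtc
Trim54: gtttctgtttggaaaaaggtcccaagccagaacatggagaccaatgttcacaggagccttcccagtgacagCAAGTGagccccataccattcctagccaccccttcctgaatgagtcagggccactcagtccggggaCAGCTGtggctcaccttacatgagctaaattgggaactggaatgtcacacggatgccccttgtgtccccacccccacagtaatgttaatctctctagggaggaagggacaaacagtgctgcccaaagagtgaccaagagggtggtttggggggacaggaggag
Trim63: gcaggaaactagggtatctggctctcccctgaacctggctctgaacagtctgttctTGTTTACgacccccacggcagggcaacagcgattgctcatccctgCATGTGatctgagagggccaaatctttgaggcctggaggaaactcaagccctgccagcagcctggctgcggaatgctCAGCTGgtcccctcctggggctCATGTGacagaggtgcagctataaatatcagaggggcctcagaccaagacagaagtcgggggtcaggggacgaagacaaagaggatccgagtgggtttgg

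Klhl40 and Klhl41 each had 4 E-boxes, Trim63 had 3 and Trim54 had 2. Of the other members with a window, Klhl31 had 0 matches to any of the motifs. The 5 windows of Klhl13 held 0 to 4 E-boxes and 0 matches to the MEF2 and forkhead sites. Of all 32851 RefSeq windows of this length, 72.3% held at least 1 E-box, 39.6% at least 2, 17.6% at least 3 and 6.49% at least 4. Klhl40 had an E-box on each side of its start, from -10 to -5 and from 9 to 14, counted from the transcript start with no base 0. Klhl41 was the single gene of the 4 with a MEF2 site, from -63 to -54, which 3.19% of all windows held. Trim63 alone had the forkhead site, on the other strand from -194 to -188, which 3.65% of all windows held. A match describes letters in these windows and is not evidence of binding.

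**Figure D4:**
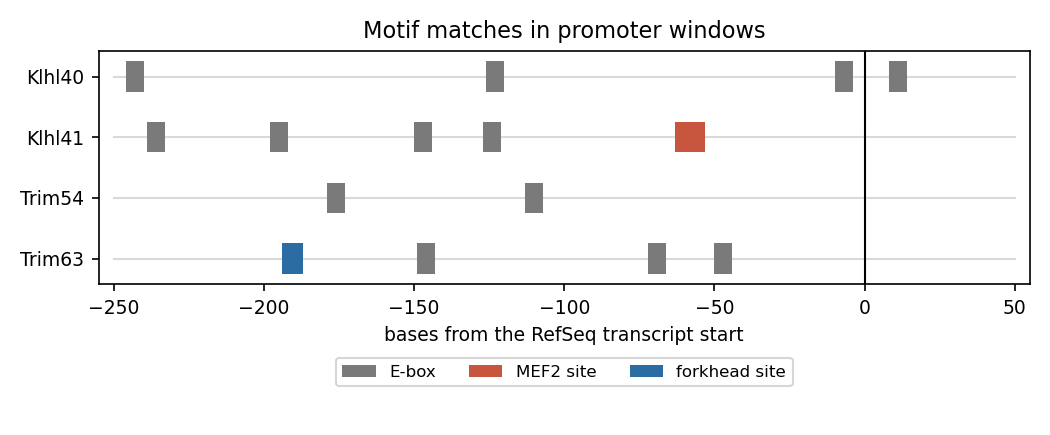
Positions of motif matches in the promoter windows of Klhl40, Klhl41, Trim54 and Trim63, in bases from the RefSeq transcript start (vertical line), for the E-box (grey), the MEF2 site (red) and the forkhead site (blue). All 4 windows hold 2 to 4 E-boxes, and the MEF2 and forkhead sites occur once each, in Klhl41 and Trim63.

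The size of each member's ratio depended on the processing to a different degree. Over 10 alternatives, Klhl41 ranged from -2.67 to -2.12 in log2 ratio, Klhl40 from -3.11 to -1.66, Trim54 from -2.90 to -1.82 and Trim63 from -2.88 to -1.02, and each stayed at least 2-fold lower in all 10. The values nearest 0 came from the floor at the 60th percentile for the last 3, where a higher floor narrows what a bound can show, and from the pseudocount for Klhl41. Klhl13 ranged from -1.10 to -0.22 and was at least 2-fold lower in 7 of 10, and Fbxo32 ranged from -0.80 to 0.14 and was at least 2-fold lower in 0 of 10.

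**Figure D5:**
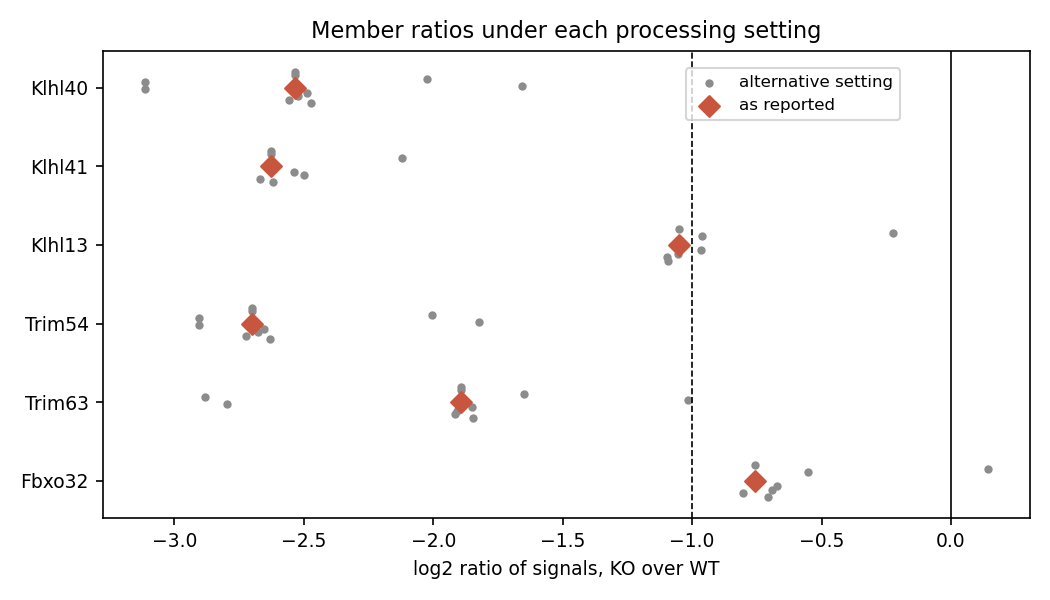
Log2 ratio, KO over WT, of each measured member as reported (diamonds) and under 10 alternative settings (points), with 0 as a solid line and 2-fold lower as a dashed line. Klhl40, Klhl41, Trim54 and Trim63 stay to the left of the dashed line, while Klhl13 straddles it and Fbxo32 reaches 0.14.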

How the data were processed

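The authors deposited a linear signal intensity for every probe set of each array. How probes were summarised and arrays scaled is not given in the sources used here, and the intensities were used as deposited. Names came from the annotation of the platform, with symbols updated by Entrez identifier through a RefSeq gene table (GRCm38.p6). Among the 45037 probe sets, a single symbol was given for 34945, several for 932 and none for 9160, and 34741 identifiers were found. Values under the floor (40th percentile, 47.04) were raised to it, then log2 was taken. The probe set of highest mean log2 value stood for its gene. Ratios are KO over WT, and 2-fold was the fixed threshold.

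The members, gene lists and marker lists were chosen with earlier results of these data known. Members were left out of the other lists. All member probe sets are named, with at most 4 genes per list, those of largest ratio past 2-fold; other genes were named after their values were seen. Families were taken by symbol (for example Klhl and Kbtbd, Trim, Fbxo, Fbxl and Fbxw). Alternatives were quantile, median and loess scaling (span 0.3), other floors, a pseudocount, other ways to represent a gene and thresholds of 1.5-fold and 3-fold. The calculation was tested on simulated data. Python 3.11.15, pandas 2.3.3 and statsmodels 0.14.6 were used. Every value column had a sample. Motifs were searched in RefSeq windows, which 6 of the 8 genes had.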

Additional observations from a re-analysis of the deposited data

How the results depend on the processing

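The count of members at least 2-fold lower was 5 as reported and 4 to 6 over all alternatives, and 0 members were at least 2-fold higher under any. It was 4 with the pseudocount, the mean over probe sets, the median over probe sets above the floor (chosen after the data were seen) and a 3-fold threshold, and 6 at 1.5-fold. The median log2 ratio over members was -1.35 with the floor at the 60th percentile and otherwise between -2.75 and -1.83.

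The count over all genes at least 2-fold lower, 981 as reported, was 1841 without a floor, 485 with the pseudocount and 490 with the mean over probe sets. At 1.5-fold it was 2811 and at 3-fold 221. The count at least 2-fold higher, 544 as reported, was 873 and 353 with floors at the 20th and 60th percentiles, 1537 without a floor, 313 with the pseudocount and 330 with the mean over probe sets. At 1.5-fold it was 1866 and at 3-fold 109. A threshold changes these counts by its construction; for the other settings the cause was not tested.

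No ratio of a member called at least 2-fold changed sign. A single array per group leaves out the spread between cultures, and 3 of the 6 main ratios are bounds because the KO signal was under the floor. No paired analysis was possible because each group had 1 array and the result comes from no test.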

Other observations

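The steps of ubiquitin-dependent breakdown before and after the ligases had medians near 0. Of 33 measured genes of E1 and E2 enzymes, which activate ubiquitin and hand it to ligases, the median log2 ratio was -0.02, with 2 at least 2-fold lower, Ube2g2 (256 in WT and 107 in KO myoblasts, with its other probe set above 0) and Ube2q2 (at least 2.19-fold lower). Of 38 measured proteasome subunit genes, the median was 0.08, with 1 at least 2-fold lower and 2 at least 2-fold higher. Psmb10, a catalytic subunit of the immunoproteasome, was at least 2.86-fold lower, and the regulatory subunit genes Psmd8 (595 and 1529) and Psmd7 (206 and 446) were 2.57-fold and 2.16-fold higher, Psmd7 with 1 of its 2 other probe sets below 0. The summed signal of the proteasome genes was 30113 and 30127.

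Genes of autophagy and the lysosome, the other route of protein breakdown in muscle, had a median of -0.02 over 16 measured genes. Of these 0 were at least 2-fold lower and 1 at least 2-fold higher, Sqstm1, which encodes the autophagy receptor p62.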
